A study of Homo sapiens with 6 samples.

Results

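The proteasome genes are the 47 genes of the deposited table, out of 31164, whose gene symbol has the form PSMA to PSMG followed by a number, with 1 gene of that form left out. They were picked by symbol and divided by role into the alpha ring and the beta ring of the 20S core, the 19S ATPases, the 19S non-ATPase subunits, assembly factors, and activators with an inhibitor. All libraries came from HT29 cells, a human line established from a colorectal cancer: 3 from cells with a stable hairpin knockdown of HMGA1 (shHMGA1) and 3 from cells with a control hairpin (shNC, labelled WT). Both groups were untreated, grown in DMEM with 10% serum, and measured by sequencing of poly-A RNA. Whether the replicates were separate cultures, and how many clones or hairpin sequences were used, is not in the labels, so a p-value here sets a difference against library-to-library spread that may be only technical.

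The proteasome degrades proteins that carry ubiquitin chains. Its 20S core is a barrel with alpha rings at the ends, which gate the channel, and beta rings inside, which hold the proteolytic sites. The 19S particle caps the core: its non-ATPase subunits bind ubiquitinated proteins and remove the ubiquitin, and its ring of ATPases unfolds the substrate and feeds it in. Dedicated chaperones build each part, and in mammalian cells the transcription factor NFE2L1 raises the subunit genes together when proteasome activity is short.

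HMGA1, the targeted chromatin protein, stood at 465, 565 and 508 FPKM in shHMGA1, against 785, 809.6 and 854 FPKM in shNC (log2 fold change -0.67, SE 0.08, adjusted p = 0.0018), with no knockdown library reaching the lowest control. Library totals ran from 807156 to 838067 FPKM (fragments per kilobase of transcript scaled to mapped fragments), and correlations of log2(FPKM + 1) were 0.980 to 0.988 within groups and 0.973 to 0.977 between them. FPKM keeps no read depth, and genes listed at 0 numbered 6807 to 7116 in shHMGA1 and 5747 to 6542 in shNC. Mitochondrially encoded RNA took 8.50% to 12.5% of the total in shHMGA1 and 11.4% to 13.5% in shNC. Of 10 markers of colon epithelium, EPCAM, CDH1, KRT8, KRT18 and CDX2 were present at over 5 FPKM, KRT20 stood near 1, and CDX1, VIL1, CEACAM5 and LGALS4 were at or near 0 in both groups, so these 4 do not bear out the label. Of 15 markers of immune, stromal, endothelial and neuronal cells, 14 averaged under 1 FPKM, and their summed level was 8.58 to 13.1 FPKM in shHMGA1 and 12.7 to 13.6 FPKM in shNC, with COL1A1 the 1 marker above 1.

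A majority of the tested proteasome genes had modestly higher RNA in the HMGA1 knockdown. Of 44 members that averaged at least 1 FPKM and were therefore tested, 25 rose, 0 fell and 19 did not pass (limma on log2(FPKM + 1), Benjamini-Hochberg adjusted p under 0.05 over 14304 genes). Over all genes tested, 16.1% were called higher, 12.3% lower and 28.4% in either direction. The median log2 fold change of the members was 0.20, or 14.9%, beside 0.02 over all genes, and the largest was 0.63. The 3 members not tested, PSMA8 of the testis, PSMB11 of the thymus and PSMB8, the interferon-induced catalytic subunit, averaged under 1 FPKM. At an unadjusted p under 0.05, 2 members were lower, PSMD10 and PSME1. The 47 genes lie on 17 chromosomes, with 8 on chromosome 14 and 7 on chromosome 17. In bulk RNA a change in a share of the cells and a smaller change in every cell, or fewer cells of a type and less RNA per cell, cannot be told apart.

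All 32 tested subunits of the 20S core and the 19S particle had estimates above 0, which 53.3% of all genes tested had, and 20 of them rose. In 25 of the 32 every shHMGA1 library lay above every shNC library, and over the 44 tested members 31 did so, a pattern seen in 25.4% of all genes. The opposite pattern, every shHMGA1 library below, held for 1 member, PSME1, and for 20.5% of all genes. Proteasome genes are mostly well expressed, and of the 2282 genes averaging at least 50 FPKM 27.5% were called higher, with a median log2 fold change of 0.07. Without the mitochondrially encoded genes 21 members rose and 1 fell, when 13.4% of all genes were called higher and 1914 of 14567 lower. The count of 25 was 14 without shHMGA1 replicate 3, 13 without shNC replicate 1 and 15 without shNC replicate 2, when the share of all genes called higher was 8%, 7.65% and 8.83%. With every library left out in turn, 12 members kept the call and all 44 kept their direction.

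**Figure D1:**
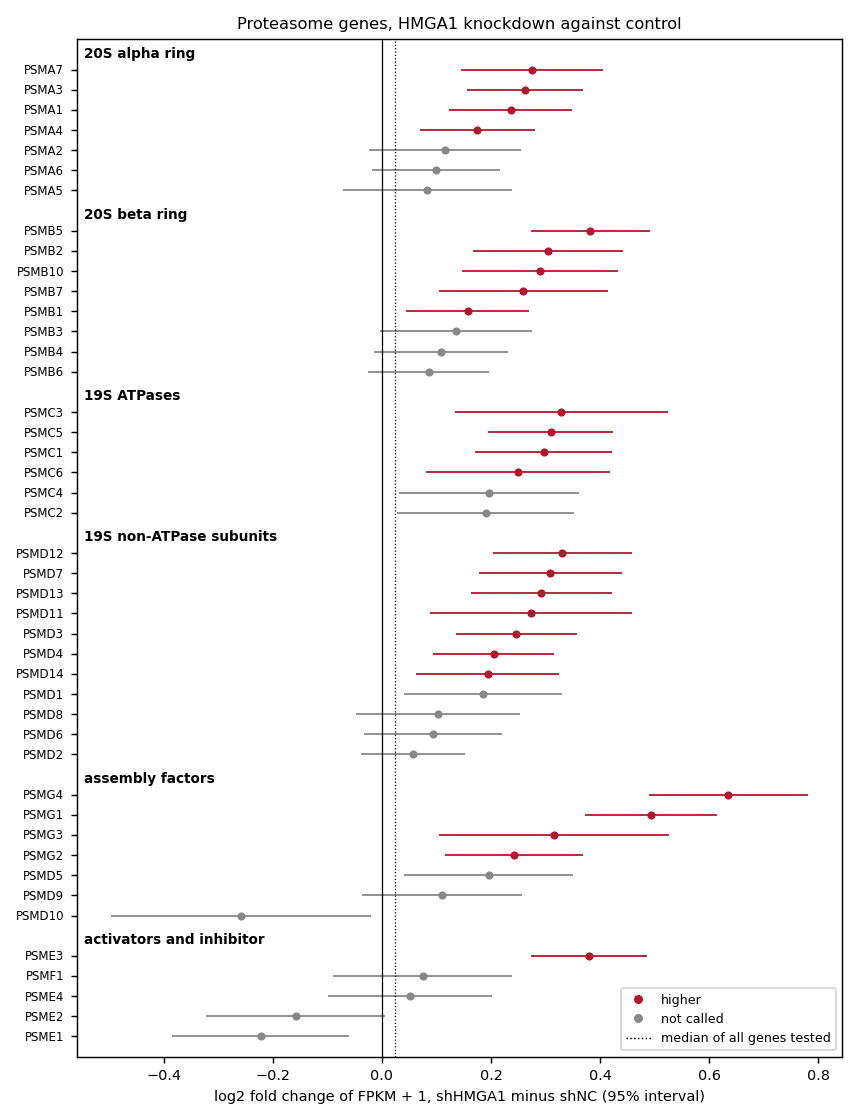
Log2 fold change of each tested proteasome gene (points) with its 95% interval (bars), on the log2(FPKM + 1) scale, shHMGA1 minus shNC, grouped by class. Red points passed the test (25 of 44), grey points did not, the solid line marks 0 and the dotted line the median of all genes tested, 0.02; all 32 subunits of the core and the 19S particle lie right of 0, and PSMD10, PSME1 and PSME2 lie left of it.

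The summed FPKM of all 47 members was 7431, 7163 and 7395 in the shHMGA1 libraries, against 6220.31, 6508 and 6637 in the shNC libraries, a mean 13.6% higher. The ATPases had the largest percent difference of the 6 classes, at 1097 ± 69.7 in shHMGA1 and 895 ± 22.9 in shNC (SD, n = 3 each), or 22.5% higher. A sum gives most weight to genes of high FPKM, and differences between classes were not tested. The median log2 fold change was 0.27 for the ATPases and 0.24 for the assembly factors. Without shHMGA1 replicate 1 these medians were 0.21 and 0.26. The alpha ring, the non-ATPase subunits, the assembly factors and the beta ring were 14.6%, 14.5%, 15.1% and 12.9% higher, and their groups did not overlap. The activators and the inhibitor together stood at 661 ± 29.7 in shHMGA1 and 673 ± 28 in shNC, with overlapping groups. The libraries of each group were not alike: among the 32 tested core and 19S subunits, shHMGA1 replicate 1 held the highest value in 18 and shHMGA1 replicate 3 in 12, while shNC replicate 1 held the lowest in 26.

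**Figure D2:**
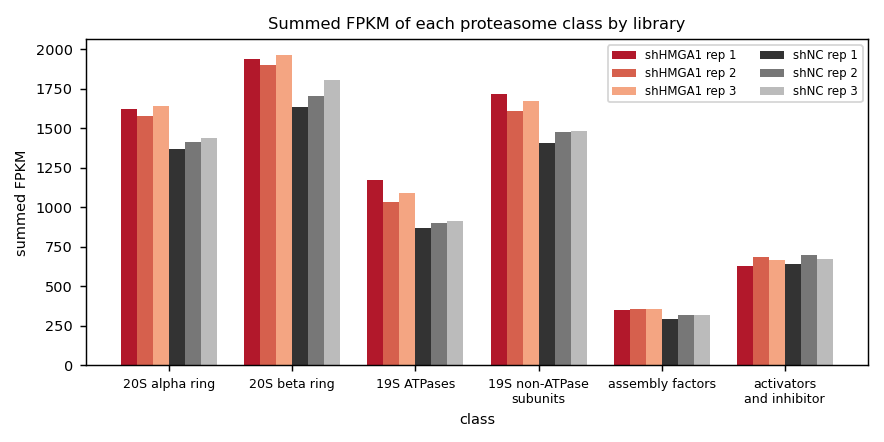
Summed FPKM of the genes of each class (bars, from 0) in the 3 shHMGA1 libraries (reds) and the 3 shNC libraries (greys). The shHMGA1 bars stand above the shNC bars in the first 5 classes, and the activators and inhibitor overlap at 628 to 685 in shHMGA1 and 644 to 699.73 in shNC.

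In the alpha ring, which docks the 19S particle and closes the channel, 4 of 7 tested genes rose and 3 did not pass. PSMA7 stood at 388, 385 and 402 FPKM in shHMGA1, against 301, 330.4 and 339.7 FPKM in shNC (log2 fold change 0.27, SE 0.06, adjusted p = 0.0121). PSMA3 stood at 203, 189 and 192 FPKM in shHMGA1, against 165, 161 and 161 FPKM in shNC (log2 fold change 0.26, SE 0.05, adjusted p = 0.00713). Both had control values that varied by less than the gap between the groups. PSMA1 stood at 174, 169 and 182 FPKM in shHMGA1, against 145, 153 and 148 FPKM in shNC (log2 fold change 0.24, SE 0.05, adjusted p = 0.0123). PSMA4, whose yeast counterpart has the N-terminal tail central to closing the gate, had the highest FPKM of the alpha genes. It stood at 443, 434 and 464 FPKM in shHMGA1, against 386, 403 and 398 FPKM in shNC (log2 fold change 0.17, SE 0.04, adjusted p = 0.0266). PSMA2 (0.11, 95% interval -0.02 to 0.25), PSMA6 (0.10, 95% interval -0.02 to 0.22) and PSMA5 (0.08, 95% interval -0.07 to 0.24) had log2 fold changes that did not pass, and their groups overlapped. PSMA3 was called with any library left out. The call of PSMA1 was lost without shNC replicate 1 (adjusted p = 0.0505), that of PSMA7 without shHMGA1 replicate 3 (0.0521), and that of PSMA4 without shHMGA1 replicate 3 or any 1 shNC library (up to 0.0941). The 4 were thus 2 without shHMGA1 replicate 3 or shNC replicate 1. Over all genes tested the share called higher was 16.1%, and in these fits, in the same order, 8% and 7.65%.

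The beta ring holds the proteolytic sites, and of the genes for its constitutive sites PSMB5 and PSMB7 rose while PSMB6 did not pass. PSMB5 (chromosome 14, 23016543 to 23035230, minus strand, hg38), which carries the chymotrypsin-like site and is the target of the drug bortezomib, stood at 168, 173 and 174 FPKM in shHMGA1, against 127, 131 and 137 FPKM in shNC (log2 fold change 0.38, SE 0.05, adjusted p = 0.00232), or 30.5% higher by group means. PSMB7, which carries the trypsin-like site, stood at 276, 279.5 and 269 FPKM in shHMGA1, against 211, 228 and 251 FPKM in shNC (log2 fold change 0.26, SE 0.07, adjusted p = 0.0259). PSMB6, which carries the caspase-like site, stood at 243, 241 and 235 FPKM in shHMGA1, against 218, 222 and 237 FPKM in shNC (log2 fold change 0.09, SE 0.05, adjusted p = 0.212, 95% interval -0.03 to 0.20). For PSMB5 and PSMB7 the groups were apart, while shNC replicate 3 reached the shHMGA1 range of PSMB6. The difference between these genes was not tested.

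The structural beta subunit PSMB2 rose with them, at 85.8, 76.9 and 80.01 FPKM in shHMGA1, against 62.4, 65.2 and 68.2 FPKM in shNC (log2 fold change 0.31, SE 0.06, adjusted p = 0.0102), and PSMB1, the most abundant beta gene in these libraries, was called close to the threshold (407 ± 16.1 FPKM in shHMGA1 and 365 ± 11.03 FPKM in shNC, SD, n = 3 each, log2 fold change 0.16, adjusted p = 0.0466). PSMB3 (0.14, 95% interval -0.00 to 0.27) and PSMB4 (0.11, 95% interval -0.01 to 0.23), also structural, had log2 fold changes that did not pass. In all 5 of 8 tested beta genes rose and 0 fell, and PSMB2 and PSMB5 were called with any library left out. PSMB1 was not called with any 1 library left out (adjusted p up to 0.146), nor with quantile or median-of-ratios scaling (0.0574 and 0.0766) or without mitochondrially encoded genes (0.0518). PSMB7 was not called without shHMGA1 replicate 2 or 3 or shNC replicate 1 or 2 (up to 0.0835). The 5 were 3 without shHMGA1 replicate 2 or 3 and 2 without shNC replicate 1 or 2. Over all genes tested the share called higher was 16.1%, and without these libraries, in the same order, 12%, 8%, 7.65% and 8.83%.

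The inducible catalytic subunits were low. PSMB10, which replaces PSMB7 in cells exposed to interferon, stood at 33.6, 30.4 and 30.8 FPKM in shHMGA1, against 24.8, 25.2 and 26.96 FPKM in shNC (log2 fold change 0.29, SE 0.06, adjusted p = 0.0142), a call lost without shNC replicate 1 or 2 (adjusted p up to 0.0603). Its exons share a stretch of 170 bases with AC040162.1 on the same strand. As a percent of PSMB7 in the same library it was 12.2, 10.9 and 11.5 in shHMGA1, against 11.7, 11.1 and 10.8 in shNC, with overlapping groups (exact permutation p = 0.6, two-sided). PSMB8, which replaces PSMB5, stood at 0.73, 0.47 and 0.52 FPKM in shHMGA1, against 0.72, 0.86 and 1.38 FPKM in shNC, under the level at which genes were tested. As a percent of PSMB5 it was 0.43, 0.27 and 0.30 in shHMGA1, against 0.57, 0.66 and 1.01 in shNC. Each shHMGA1 ratio lay below each shNC ratio, and the two-sided exact permutation p was 0.1, its lower limit with 3 libraries a side. PSMB8 itself overlapped between the groups, while PSMB5, the divisor, was higher in every shHMGA1 library. In the authors' deposited table PSMB8 had a log2 fold change of -0.88 with adjusted p = 0.142. Exons of PSMB8 overlap a stretch of 425 bases of PSMB8-AS1 on the opposite strand, so at this level part of its reads may belong to that gene.

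**Figure D3:**
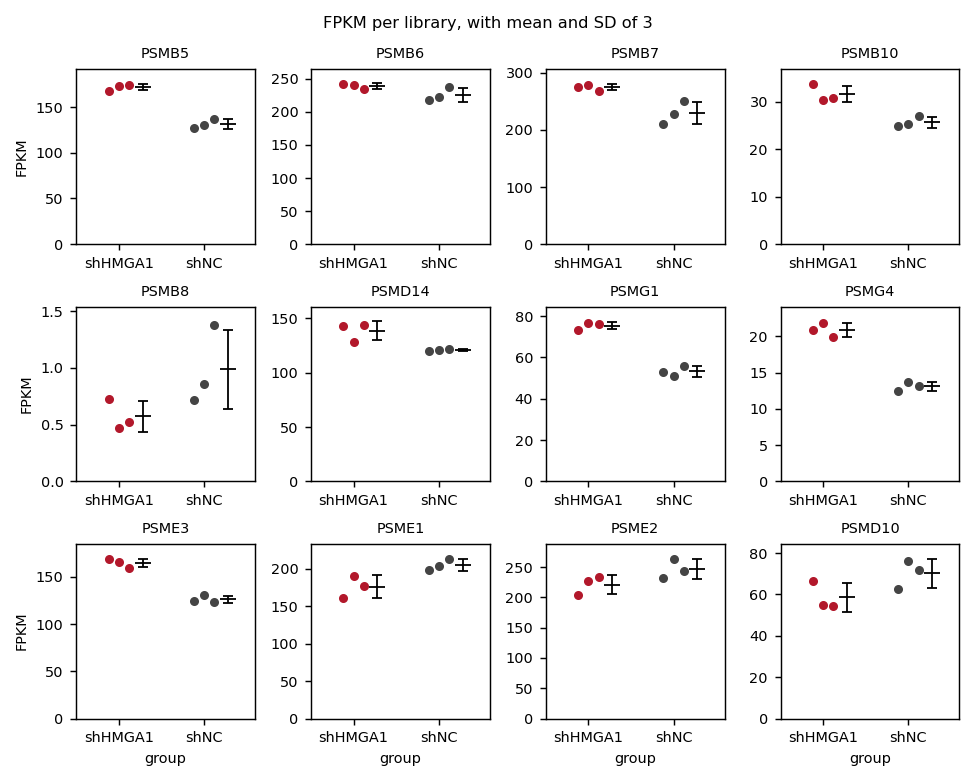
FPKM of 12 proteasome genes in each library (points, 3 shHMGA1 in red and 3 shNC in dark grey) with the mean and SD of each group (bar to the right); each panel starts at 0 and has its own scale. PSMB5, PSMB7, PSMB10, PSMD14, PSMG1, PSMG4 and PSME3 show every shHMGA1 point above every shNC point, PSME1 shows the reverse, and PSMB6, PSMB8, PSME2 and PSMD10 overlap.

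Among the 6 ATPases, which form the ring that unfolds substrates, 4 rose and 2 did not pass, beside 16.1% called higher of all genes tested. PSMC3 and PSMC1, both with a tail motif that docks between alpha subunits and opens the gate, stood apart from the controls in every library. PSMC3 stood at 398, 316 and 339 FPKM in shHMGA1, against 272, 278 and 284 FPKM in shNC (log2 fold change 0.33, SE 0.08, adjusted p = 0.0258), with shHMGA1 replicate 1 well above the other knockdown libraries. PSMC1 stood at 313, 285 and 300.1 FPKM in shHMGA1, against 233, 245 and 253 FPKM in shNC (log2 fold change 0.30, SE 0.05, adjusted p = 0.0083). PSMC5 stood at 197, 206 and 205 FPKM in shHMGA1, against 159, 159 and 172 FPKM in shNC (log2 fold change 0.31, SE 0.05, adjusted p = 0.00527). PSMC6, closest to the threshold, stood at 83.7, 73.6 and 75.2 FPKM in shHMGA1, against 65.3, 69.4 and 60.4 FPKM in shNC (log2 fold change 0.25, SE 0.07, adjusted p = 0.0396). PSMC4, the remaining ATPase with the docking motif, had a log2 fold change of 0.20 (95% interval 0.03 to 0.36, adjusted p = 0.0752), with all 3 shHMGA1 values above all shNC values, and PSMC2 one of 0.19 (95% interval 0.03 to 0.35, adjusted p = 0.0782), with overlap.

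PSMC1 and PSMC5 were called with any library left out. PSMC3 was not called without shHMGA1 replicate 3 or any 1 shNC library (adjusted p up to 0.0886), when the 4 ATPases that rose were 2. The share of all genes called higher was then 7.65% to 10.7%. PSMC6 was not called with any 1 library left out (up to 0.108), nor with quantile or median-of-ratios scaling (0.1 and 0.0538) or without mitochondrially encoded genes (0.0824). The processed pseudogene PSMC1P1, a copy of PSMC1, was listed at 38.9, 29.7 and 35.5 FPKM in shHMGA1, against 26.9, 26.5 and 27.8 FPKM in shNC. PSMC1P5, another PSMC1 pseudogene by its symbol, was uneven, at 74.2, 21.04 and 0 FPKM in shHMGA1, against 0, 17.6 and 0 FPKM in shNC. Reads of PSMC1 and these copies may be divided among them. Exons of PSMC1 also overlap a stretch of 3157 bases of NRDE2 on the opposite strand.

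In the 19S non-ATPase group 7 of 11 genes rose and 4 did not pass, beside 16.1% called higher of all genes tested. The lid subunit PSMD12 stood at 133, 136 and 143 FPKM in shHMGA1, against 106, 115 and 105 FPKM in shNC (log2 fold change 0.33, SE 0.05, adjusted p = 0.00605). PSMD7, the partner with which the deubiquitinase PSMD14 is active, stood at 131, 119 and 125 FPKM in shHMGA1, against 100.3, 106 and 96.4 FPKM in shNC (log2 fold change 0.31, SE 0.06, adjusted p = 0.0083), and PSMD13, another lid subunit, at 173, 160.1 and 169 FPKM in shHMGA1, against 129, 139 and 142 FPKM in shNC (log2 fold change 0.29, SE 0.05, adjusted p = 0.00955). In all 3 the groups were well apart. PSMD11, which clamps the lid to the core, stood at 120.4, 97.6 and 102 FPKM in shHMGA1, against 86.3, 89.1 and 87.9 FPKM in shNC (log2 fold change 0.27, SE 0.08, adjusted p = 0.0391), with shHMGA1 replicate 1 the highest. PSMD14, which cuts ubiquitin chains from the substrate as it enters, stood at 143, 128 and 144 FPKM in shHMGA1, against 119.95, 121 and 122 FPKM in shNC (log2 fold change 0.19, SE 0.06, adjusted p = 0.0393). Its control libraries lay close together and below all 3 knockdown libraries.

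The lid subunit PSMD3 (132 ± 4.52 FPKM in shHMGA1 and 111 ± 3.33 FPKM in shNC, log2 fold change 0.25, adjusted p = 0.0102) and the ubiquitin receptor PSMD4 (222 ± 4.81 FPKM in shHMGA1 and 193 ± 8.16 FPKM in shNC, log2 fold change 0.20, adjusted p = 0.0189; SD, n = 3 each) also rose. The scaffold subunits of the base, which hold shuttle factors and the receptor ADRM1, did not pass: PSMD1 had a log2 fold change of 0.19 (95% interval 0.04 to 0.33, adjusted p = 0.0622), and PSMD2, the most abundant gene of this group, one of 0.06 (95% interval -0.04 to 0.15). The lid subunits PSMD6 (0.09, 95% interval -0.03 to 0.22) and PSMD8 (0.10, 95% interval -0.05 to 0.25) did not pass either. PSMD3, PSMD7, PSMD12 and PSMD13 were called with any library left out. Leaving out shHMGA1 replicate 3, or shNC replicate 1 or 2, ended the call of PSMD4 (adjusted p up to 0.0698), and the same libraries or shNC replicate 3 that of PSMD11 (up to 0.116). PSMD14 kept its call only without shHMGA1 replicate 2 (otherwise up to 0.125). The 7 were 4 with shHMGA1 replicate 3, or shNC replicate 1 or 2, left out. The share of all genes called higher was then 8%, 7.65% and 8.83%, in the same order. Median-of-ratios scaling ended the calls of PSMD11 (0.0603) and PSMD14 (0.0662), and so did leaving out mitochondrially encoded genes (0.0703 and 0.0738).

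**Figure D4:**
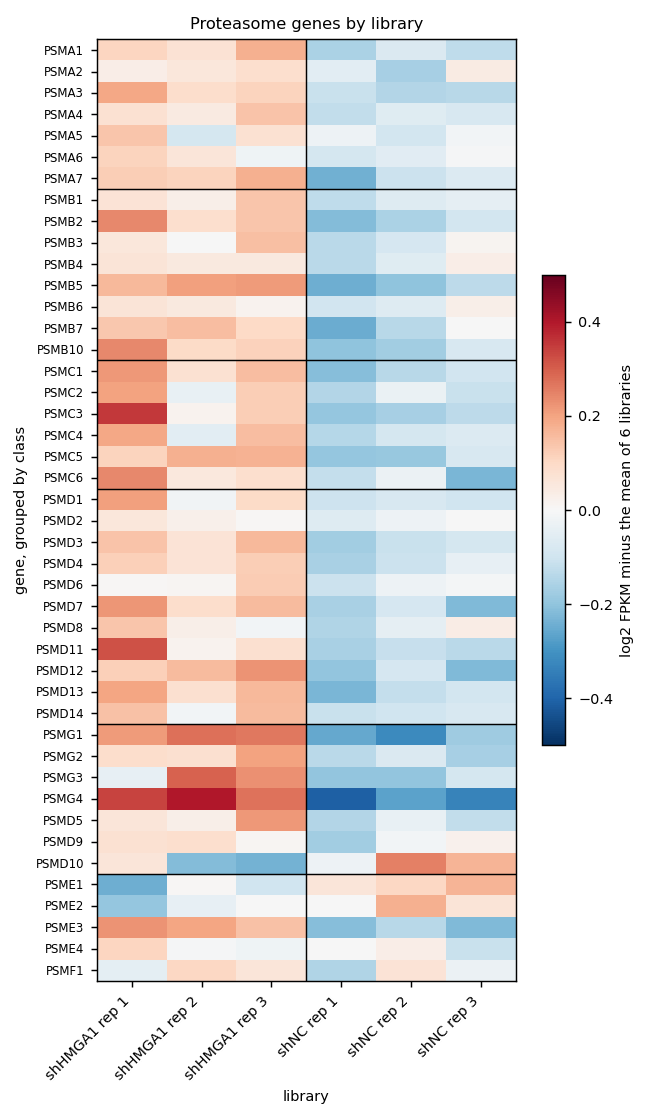
Log2 FPKM of each tested proteasome gene (rows, grouped by class) in each library (columns), as the difference from that gene's mean over the 6 libraries; red is above the mean and blue below. Most rows of the core and the 19S particle are red in the shHMGA1 columns and blue in the shNC columns, and PSMD10, PSME1 and PSME2 show the opposite or a mixed pattern.

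Of 7 assembly factors 4 rose, all of them chaperones of the core, and PSMG4 and PSMG1 had the largest log2 fold changes of all members. PSMG4 (chromosome 6, 3231403 to 3303373, plus strand), which with PSMG3 helps to order the alpha ring, stood at 20.9, 21.8 and 19.9 FPKM in shHMGA1, against 12.4, 13.7 and 13.1 FPKM in shNC (log2 fold change 0.63, SE 0.06, adjusted p = 0.0013), or 59.5% higher by group means. PSMG1 (chromosome 21, 39174769 to 39183851, minus strand), which with PSMG2 forms the scaffold on which that ring is built, stood at 73.5, 76.6 and 76.05 FPKM in shHMGA1, against 53.1, 50.8 and 55.97 FPKM in shNC (log2 fold change 0.49, SE 0.05, adjusted p = 0.00147). In both genes the lowest knockdown library lay far above the highest control. Their partners rose by less: PSMG3 stood at 48.4, 61.05 and 58.4 FPKM in shHMGA1, against 43.4, 43.4 and 46.8 FPKM in shNC (log2 fold change 0.32, SE 0.09, adjusted p = 0.0377), with shHMGA1 replicate 1 near the controls, and PSMG2 at 56.98, 56.7 and 61.7 FPKM in shHMGA1, against 48.9, 51.1 and 47.8 FPKM in shNC (log2 fold change 0.24, SE 0.05, adjusted p = 0.0169). PSMG1 and PSMG4 were called with any library left out. PSMG2 lost its call when shHMGA1 replicate 3, or shNC replicate 1 or 3, was left out (adjusted p up to 0.0628), and the 4 were then 2. Over all genes tested the share called higher was 16.1%, and in these fits, in the same order, 8%, 7.65% and 10.7%. PSMG3 kept its call only without shHMGA1 replicate 1 (otherwise up to 0.12), and lost it with quantile scaling (0.0666), with no filter (0.101) and with no mean-variance trend (0.0569). PSMG4 exons overlap a stretch of 1320 bases of SLC22A23 and one of 174 of TUBB2B on the opposite strand in GENCODE 29. The strand setting of the counts is not given, so part of the reads of PSMG4 may not be separable.

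Because PSMG4 and PSMG1 had the 2 largest changes, the 250 bases before their RefSeq starts are shown, on GRCh38.p14 (PSMG4 on chr6:3258697-3258946, plus strand; PSMG1 on chr21:39183452-39183701, minus strand), 5′ to 3′ on the gene's strand. The RefSeq starts differ from the outer ends of the GENCODE 29 spans given above, which take in every annotated transcript, so both stretches lie inside those spans. Capitals mark TGACNNNGC, TGAGNNNGC or CCAAT on either strand. The stretch of PSMG4 holds none of them, and that of PSMG1 holds 3 of the first 2 kinds and 1 CCAAT; 69.6% and 70.8% of their bases are G or C.
PSMG4: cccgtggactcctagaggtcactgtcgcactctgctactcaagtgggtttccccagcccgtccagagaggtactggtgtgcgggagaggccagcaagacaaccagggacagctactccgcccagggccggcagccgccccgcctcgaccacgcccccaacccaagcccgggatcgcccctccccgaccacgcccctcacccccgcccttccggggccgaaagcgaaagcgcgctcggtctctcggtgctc
PSMG1: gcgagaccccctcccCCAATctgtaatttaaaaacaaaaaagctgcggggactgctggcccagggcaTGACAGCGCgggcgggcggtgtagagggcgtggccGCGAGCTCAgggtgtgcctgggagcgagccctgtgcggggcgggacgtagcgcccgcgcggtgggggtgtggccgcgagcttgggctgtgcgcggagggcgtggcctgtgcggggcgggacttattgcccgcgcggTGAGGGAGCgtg

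PSMD10, PSMD5 and PSMD9, chaperones of the 19S base, did not pass. PSMD10 (chromosome X, 108084207 to 108091618, minus strand), known as gankyrin, an oncoprotein that binds an ATPase during assembly, stood at 66.5, 54.9 and 54.2 FPKM in shHMGA1, against 62.7, 76.02 and 71.7 FPKM in shNC (log2 fold change -0.26, SE 0.10, adjusted p = 0.0965, 95% interval -0.50 to -0.02), with shHMGA1 replicate 1 within the control range. PSMD5 had a log2 fold change of 0.20 (95% interval 0.04 to 0.35, adjusted p = 0.0627) with groups apart, and PSMD9 one of 0.11 (95% interval -0.04 to 0.26, adjusted p = 0.226) with overlap. PSMD10 passed as lower without shHMGA1 replicate 1 (log2 fold change -0.35, adjusted p = 0.0272) and with quantile scaling (log2 fold change -0.32, adjusted p = 0.0495).

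Of the 4 activator genes, whose products open the core without the 19S particle, and the inhibitor PSMF1, 1 rose and 4 did not pass. The share that rose, 20%, was near the 16.1% called higher of all genes tested. PSME3 (chromosome 17, 42824385 to 42843758, plus strand), the nuclear activator that forms a ring of its own kind, stood at 168, 165 and 159.5 FPKM in shHMGA1, against 124, 131 and 124 FPKM in shNC (log2 fold change 0.38, SE 0.05, adjusted p = 0.00222) and was called with any library left out. PSME1 (chromosome 14, 24136158 to 24138967, plus strand), which with PSME2 forms the interferon-induced activator, stood at 160.2, 190.5 and 177 FPKM in shHMGA1, against 198, 204 and 213 FPKM in shNC (log2 fold change -0.22, SE 0.07, adjusted p = 0.0502), just short of a call. PSME2 stood at 204, 227 and 233 FPKM in shHMGA1, against 233, 264 and 244 FPKM in shNC (log2 fold change -0.16, SE 0.07, adjusted p = 0.131, 95% interval -0.32 to 0.01). Every shHMGA1 value of PSME3 lay above the controls and every one of PSME1 below them, while PSME2 overlapped. PSME1 was called as lower without shHMGA1 replicate 2 (adjusted p = 0.0288), with median-of-ratios scaling (0.0341), with quantile scaling (0.0157) and without mitochondrially encoded genes (0.0204), and PSME2 with quantile scaling (0.0412). PSME4, an activator with a role in histone turnover, had a log2 fold change of 0.05 (95% interval -0.10 to 0.20), and PSMF1, which inhibits the core in vitro, one of 0.07 (95% interval -0.09 to 0.24). Neither passed.

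FPKM values within the complex were not equal, although the subunits enter the particle in equal numbers. FPKM is scaled per length, but the length used for each gene is not given, so the ranges below depend on it. The authors' normalized shNC levels were closer for PSMA4 and PSMA5, at 6255 and 4111. They were farther apart for PSMD2 and PSMD6, at 16105 and 2495. Whether those levels are scaled per length is not given. In shNC the alpha genes ran from 70.6 FPKM (PSMA5) to 395 FPKM (PSMA4), 5.60-fold apart, and the ATPases from 60.6 FPKM (PSMC2) to 278 FPKM (PSMC3), 4.59-fold apart. The non-ATPase subunits ran from 73.4 FPKM (PSMD6) to 252 FPKM (PSMD2), 3.43-fold apart. The tested beta genes had the widest range of the 4 subunit classes, from 25.7 FPKM (PSMB10) to 365 FPKM (PSMB1), 14.2-fold apart. That width rests on PSMB10, an inducible subunit that takes the place of PSMB7. Of the constitutive beta genes the lowest was PSMB2, at 65.3 FPKM. The chaperones stood lower, from 13.1 FPKM (PSMG4) to 70.1 FPKM (PSMD10), with a median of 49.3 FPKM beside 162 FPKM for the alpha ring and 228 FPKM for the beta ring.

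In the authors' deposited table all 44 tested members had log2 fold changes of the same sign as by FPKM, with a median of 0.19 in the authors' deposited table. The adjusted p in the authors' deposited table was under 0.05 for 29 higher members and 2 lower members, PSMD10 and PSME1, beside 17.5% higher and 16.7% lower of the 16509 genes with such a value. Of the 25 called by FPKM, 24 were also under 0.05 in the authors' deposited table, and PSMB10 stood at 0.0704 there. Both come from the same libraries, so this is no second measurement.

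Genes that act with the proteasome were called in both directions. Among 16 partners 3 rose, 3 fell and 10 did not pass, or 18.75% each way beside 16.1% higher and 12.3% lower of all genes tested, with a median log2 fold change of 0.01. The shuttle factor UBQLN4 stood at 40.4, 43.8 and 43.5 FPKM in shHMGA1, against 34.3, 32.3 and 34.96 FPKM in shNC (log2 fold change 0.32, SE 0.06, adjusted p = 0.00751). The proteasome-bound ECPAS (log2 fold change 0.26, adjusted p = 0.0358) and the deubiquitinase UCHL5 (0.19, adjusted p = 0.0265) also rose, while in the authors' deposited table UCHL5 stood at an adjusted p of 0.0851. PAAF1, which binds free ATPases of the 19S base, stood at 8.05, 8.73 and 8.01 FPKM in shHMGA1, against 10.8, 11.9 and 11.1 FPKM in shNC (log2 fold change -0.41, SE 0.07, adjusted p = 0.00587), while the shuttle factor UBQLN2 (-0.36, adjusted p = 0.00727) and ZFAND5, which stimulates the proteasome (-0.24, adjusted p = 0.0321), fell with it. The subunits whose symbols lie outside the PSM series did not pass: ADRM1, a ubiquitin receptor, had a log2 fold change of 0.15 (adjusted p = 0.077) and SEM1, a small lid subunit, one of -0.17 (adjusted p = 0.203). POMP, the chaperone that completes the core, stood at 95.7 ± 1.18 FPKM in shHMGA1 and 95.2 ± 1.49 FPKM in shNC (SD, n = 3 each, log2 fold change 0.01, SE 0.04, adjusted p = 0.898). The 3 that rose were 1, UBQLN4, without shHMGA1 replicate 3 or any 1 shNC library (adjusted p up to 0.105 for ECPAS and 0.0908 for UCHL5). The 3 that rose were also 1 without mitochondrially encoded genes, when 13.4% of all genes were called higher. With those libraries left out in turn the share was 7.65% to 10.7%. ZFAND5 was not called without either of shHMGA1 replicates 1 and 2 or of shNC replicates 1 and 2 (up to 0.107), when the 3 that fell were 2.

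NFE2L1, the factor that raises subunit genes, stood at 88.1, 99.2 and 91.5 FPKM in shHMGA1, against 88.3, 94.8 and 95.2 FPKM in shNC (log2 fold change 0.00, SE 0.06, adjusted p = 0.984, 95% interval -0.14 to 0.14), with overlapping groups. Of 9 genes in that list, covering its processing and its partners, 0 rose, 2 fell and 7 did not pass (median -0.07), beside 16.1% higher and 12.3% lower of all genes tested. MAFF, a small MAF partner of such factors, stood at 8.70, 5.83 and 6.97 FPKM in shHMGA1, against 16.1, 16.2 and 15.9 FPKM in shNC (log2 fold change -1.08, SE 0.12, adjusted p = 0.00182) and was called with any library left out. SYVN1, a ubiquitin ligase of the endoplasmic reticulum, had a log2 fold change of -0.36 (adjusted p = 0.0463), a call that held without shHMGA1 replicate 1 but not with any other library left out (up to 0.145). Without mitochondrially encoded genes the 2 that fell were 1. NFE2L2 had a log2 fold change of -0.04 (adjusted p = 0.465).

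NFE2L1 and its relative NFE2L2 read sites close to TGACNNNGC and TGAGNNNGC, so the promoter windows of the members (250 bases before to 50 after the start) were searched for these letters on both strands. Of 44 tested members, 38 had a window in RefSeq, 46 windows in all. At least 1 of these motifs was found in 47.8% of member windows, beside 29.1% of 34943 windows of all genes. TGACNNNGC alone was in 30.4% of member windows, beside 13.3% of all. CCAAT was in 39.1%, beside 34.6% of all. By gene, 11 of 20 members that rose and 10 of 18 that did not pass held TGACNNNGC or TGAGNNNGC. TGACNNNGC alone was held by 6 of 20 that rose and 8 of 18 that did not pass. Matches of different motifs may overlap each other. The median GC content was 62.3% in member windows and 58.7% in all. A match is a string of letters and not a site shown to be bound.

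The next stretches show TGACNNNGC, in capitals, in the 12 members that hold it at least 30 bases before the RefSeq start, so that those that rose and those that did not pass can be read side by side, 5′ to 3′ on the gene's strand (GRCh38.p14, RefSeq). These starts can lie inside the GENCODE 29 span of a gene. In PSMC5, PSMD9 and PSME4 the letters read as the reverse complement, and PSMD9 holds another match nearer its start. The positions and strands of the 6 that rose are chr15:78540640-78540688 (PSMA4, plus), chr17:63827644-63827692 (PSMC5, plus), chr17:39980750-39980798 (PSMD3, plus), chr17:67366714-67366762 (PSMD12, minus), chr21:39183606-39183654 (PSMG1, minus) and chr18:12658679-12658727 (PSMG2, plus).
PSMA4: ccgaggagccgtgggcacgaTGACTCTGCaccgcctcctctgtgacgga
PSMC5: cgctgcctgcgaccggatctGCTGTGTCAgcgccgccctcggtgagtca
PSMD3: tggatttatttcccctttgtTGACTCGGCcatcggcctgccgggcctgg
PSMD12: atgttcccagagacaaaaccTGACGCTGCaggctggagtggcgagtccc
PSMG1: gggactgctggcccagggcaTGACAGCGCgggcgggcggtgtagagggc
PSMG2: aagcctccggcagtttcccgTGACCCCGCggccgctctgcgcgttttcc

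The positions and strands of the 6 that did not pass are chr17:38752617-38752665 (PSMB3, plus), chr9:120843028-120843076 (PSMD5, minus), chr12:121888621-121888669 (PSMD9, plus), chr14:24136088-24136136 (PSME1, plus), chr14:24146757-24146805 (PSME2, minus) and chr2:53970999-53971047 (PSME4, minus). The same letters stand in both sets.
PSMB3: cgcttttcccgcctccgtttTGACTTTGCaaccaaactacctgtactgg
PSMD5: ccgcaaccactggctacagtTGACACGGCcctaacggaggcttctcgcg
PSMD9: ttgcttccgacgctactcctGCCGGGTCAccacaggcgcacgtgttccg
PSME1: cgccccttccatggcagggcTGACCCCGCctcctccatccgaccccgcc
PSME2: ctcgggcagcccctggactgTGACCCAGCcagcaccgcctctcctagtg
PSME4: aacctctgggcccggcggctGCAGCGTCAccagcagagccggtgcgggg

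Of 3 genes that encode ubiquitin and the 2 activating enzymes, 0 rose, 1 fell and 4 did not pass (median -0.06), again beside 16.1% higher and 12.3% lower of all genes tested. UBB, which encodes a chain of ubiquitin units, stood at 1610.5 ± 53.1 FPKM in shHMGA1 and 1674 ± 77.5 FPKM in shNC (SD, n = 3 each, log2 fold change -0.06). The activating enzyme UBA6 fell (21.6 ± 0.686 FPKM in shHMGA1 and 26.2 ± 2.25 FPKM in shNC, log2 fold change -0.27, adjusted p = 0.0303), a call that held without shHMGA1 replicate 1 or without shNC replicate 2 but not without any of the other libraries (up to 0.101). The authors' deposited table gives UBA6 a log2 fold change of -0.05 with adjusted p = 0.600.

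Genes of other complexes were called higher as well, and whether the proteasome genes differ from them was not tested. Of all genes tested 16.1% were called higher and 12.3% lower. Among genes averaging at least 50 FPKM 27.5% were called higher. Of 10 genes of VCP, the segregase that pulls ubiquitinated proteins from membranes and complexes, and its cofactors, 5 rose and 0 fell (median log2 fold change 0.11), led by PLAA at 34.1, 32.8 and 31.2 FPKM in shHMGA1, against 26.3, 26.5 and 24.8 FPKM in shNC (log2 fold change 0.33, SE 0.06, adjusted p = 0.00696), then FAF1 (0.25) and the VCP adaptor NPLOC4 (0.24). Of 10 subunits of the COP9 signalosome, a relative of the 19S lid, 5 rose and 0 fell (median 0.19), led by COPS3 at 85.3, 74.3 and 80.7 FPKM in shHMGA1, against 59.9, 64.97 and 64.4 FPKM in shNC (log2 fold change 0.34, SE 0.06, adjusted p = 0.00981), then COPS2 (0.27) and COPS6 (0.25). Of 8 subunits of the CCT chaperonin, which folds actin and tubulin, 5 rose and 0 fell (median 0.15), led by CCT6A at 226, 233 and 246 FPKM in shHMGA1, against 176, 188 and 176 FPKM in shNC (log2 fold change 0.38, SE 0.05, adjusted p = 0.0033), then CCT3 (0.27) and CCT2 (0.21). In PLAA, COPS3 and CCT6A every shHMGA1 library lay above every shNC library, and each was called with any library left out. FAF1, NPLOC4, COPS2 and COPS6 lost their calls with some libraries left out. Their adjusted p then reached 0.123, 0.0626, 0.0632 and 0.0612 in the same order. VCP itself had a log2 fold change of 0.15 (adjusted p = 0.0382, up to 0.135 with a library left out). With a library left out, the 5 of VCP and its cofactors were 1 with either of shNC replicates 1 and 2 out, 2 with the third library of either group out, and 3 otherwise. The 5 of the signalosome were 1 without shHMGA1 replicate 3, 1 without shNC replicate 2, 2 without shNC replicate 1 and 3 without shHMGA1 replicate 2. The 5 of the chaperonin were 3 without any library but shHMGA1 replicate 2. With a library left out, the share of all genes called higher ran from 7.65% to 18.3%. With quantile scaling the counts were 1 for VCP and its cofactors, 3 for the signalosome and 3 for the chaperonin, and with median-of-ratios scaling 2, 4 and 3 in the same order. Of all genes 14.4% were called higher with quantile scaling and 13.8% with median-of-ratios scaling.

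**Figure D5:**
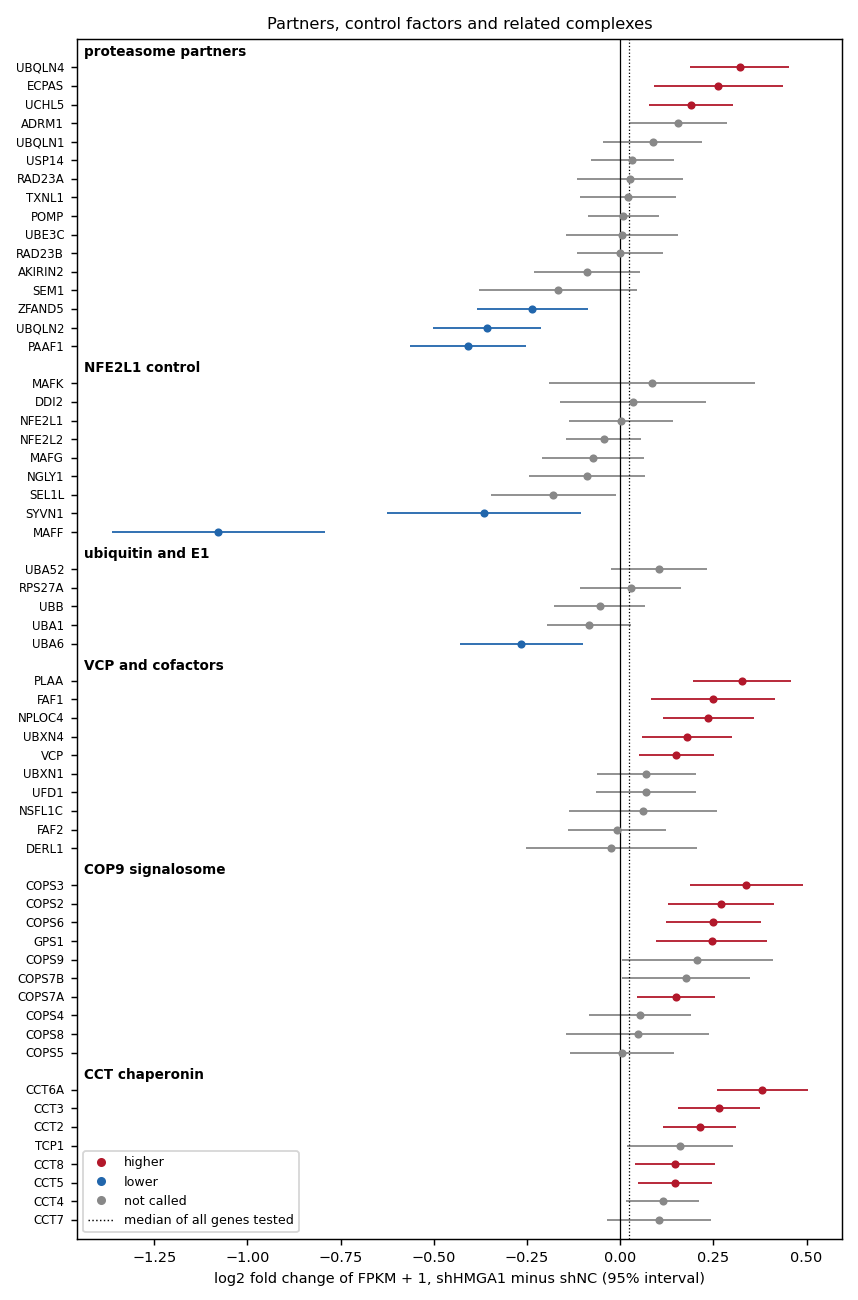
Log2 fold change (points) with 95% interval (bars) of the genes that act with the proteasome and of related complexes, on the log2(FPKM + 1) scale, shHMGA1 minus shNC. Red points passed the test as higher, blue as lower and grey did not pass; MAFF lies farthest left at -1.08, and the COP9 signalosome and CCT chaperonin genes lie at 0 or right of it.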

How the data were processed

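Poly-A RNA of 6 HT29 libraries was sequenced on an MGI instrument, per the labels' protocols. Reads were placed on hg38, as the submitters' processing notes name it. The aligner, counter, strand setting and annotation were not given in the sources used here. The deposited table holds FPKM per library, as the authors computed it, to 2 decimals. Per the file headers it also holds 1 level for each group, a signal that the authors normalized, and the authors' own comparison: a log2 fold change with its p-value, raw and adjusted.

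For the 14304 genes averaging at least 1 FPKM, log2(FPKM + 1) was compared between groups with limma 3.58.1 (R 4.3.3), using eBayes with trend, two-sided p-values and Benjamini-Hochberg adjustment over all of them. On the log2(FPKM + 1) scale, changes of low genes come out too small. Low FPKM values gave no even steps from which read depth could be recovered. The test was first tried on simulated data with known changes, far fewer than were called here. In that trial most changes as small as the members' median were missed, so a gene that did not pass may still differ.

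Members and lists were chosen with earlier results of these data known. Every member is named; up to 4 called members per class with groups apart are given by library, with the catalytic subunits and PSMD14, and up to 3 called genes in each direction lead each other list; other genes named from those lists were chosen after their values were seen. Of the 47 member IDs all were found in GENCODE 29 (14 in the same version), and 22 have an exon that overlaps another gene, 7 on the same strand. Overlaps in bases are the longest between any single exon of each gene, and not totals. 1 gene of the PSM series and 1 of the other lists are not reported here. Figures were drawn with matplotlib 3.10.9 in Python 3.11.15. Alternatives were other pseudocounts (0.1 and 5), filters, scalings (quantile, median-of-ratios, TPM), no mitochondrially encoded genes, the replicate number as a block, other eBayes settings and leaving out each library.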

Additional observations from a re-analysis of the deposited data

How the results depend on the processing

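No member changed direction under any alternative, and of 484 comparisons of a member with its value under an alternative other than leaving out a library, 443 stayed on the same side of the threshold, as did 211 of 264 with a library left out. The count of members that rose, 25, ran from 17 with no filter to 26 with TPM, when 4.74% and 16.5% of all genes were called higher. With a library left out it ran from 13 (without shNC replicate 1) to 24 (without shHMGA1 replicate 2), beside 7.65% and 12% of all genes. With no filter, which took 31164 genes into the adjustment, the ATPases that rose were 2 and the beta genes 3. The count that fell, 0, was 3 with quantile scaling and 1 with a pseudocount of 0.1, a mean of at least 5 FPKM, median-of-ratios scaling, no mitochondrially encoded genes, robust eBayes or the replicate block, and 0 to 1 with a library left out. Genes called lower over all tested were 1758 of 14304 (12.3%) in the main fit and 1881 of 14304 with quantile scaling. They were 1998 of 14299 with median-of-ratios scaling and 1914 of 14567 without mitochondrially encoded genes. With a library left out they ran from 947 to 1962 of 14304. With the replicate block 21 rose and 1 fell, when 13.4% of all genes were called higher and 1495 of 14304 lower. Same-numbered libraries showed little shared deviation (correlations 0.02, -0.04 and 0.04). With 3 libraries a side this cannot show whether they were prepared together, which is not in the labels. Among all genes the share of calls that were higher was 56.8%, 50.6% without mitochondrially encoded genes and 49.7% with median-of-ratios scaling. No scaling moved the median of all genes by over 0.1. The median log2 fold change of the members, 0.201, was 0.157 with quantile scaling and 0.212 with TPM. It was 0.175 both with median-of-ratios scaling and without mitochondrially encoded genes. The PSMB8 to PSMB5 difference of -0.41 percentage points ran from -0.50 to -0.28 with a library left out, and the PSMB10 to PSMB7 difference of 0.32 from -0.026 (without shHMGA1 replicate 1) to 0.64.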
